A study of Mus musculus with 12 samples.

Results

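A set of 10 genes of bile acid synthesis, conjugation, sensing and transport was followed in mouse liver. The genes were chosen by name and not by a cutoff on their values, but with earlier results of these data known. They are Cyp7a1, Cyp8b1, Cyp27a1, Cyp7b1, Slc27a5, Baat, Nr1h4, Nr0b2, Slc10a1 and Abcb11. All 10 were found among the 16346 genes of the deposited table, and all 10 had a mean normalized count of at least 10 and entered the tests. Liver RNA was sequenced from 12 mice of the C57BL6J strain aged 12 weeks, with 2 mice in each of 6 groups formed by genotype and diet. The control mice were Med13 fl/fl, in which the Med13 gene carries sites for the Cre recombinase but is intact. The MED13-LKO mice carry the same floxed alleles and in addition Alb-Cre, a Cre driven by the albumin promoter, so that recombination is directed to hepatocytes. Whether every other cell type of the liver keeps the gene was not tested here. Cre without floxed alleles was not among the groups. MED13 belongs to the kinase module of Mediator, the complex through which transcription factors act on RNA polymerase II. In each genotype, one group was fasted overnight for 16 h and the other two were refed for 4 h on standard chow, with drinking water that held either 30% sucrose or 30% fructose. By the methods, the fasted mice were killed in the morning and the fed mice in the early afternoon, so feeding and the hour of collection cannot be told apart here. The labels of these libraries give no sex, while the study describes the mice of its metabolic tests and hepatocyte cultures as male.

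Hepatocytes make bile acids from cholesterol. In the classical pathway Cyp7a1 carries out the first and rate-limiting step and Cyp8b1 the 12-alpha hydroxylation that gives cholic acid, while Cyp27a1 oxidizes the side chain and, with Cyp7b1, opens an alternative pathway. The acids are activated with coenzyme A and joined to taurine or glycine, exported into bile, reabsorbed in the gut and taken up again from portal blood. Bile acids bind the nuclear receptor FXR, encoded by Nr1h4, which induces SHP, encoded by Nr0b2, a repressor of bile acid synthesis.

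Values are normalized counts per gene, which the authors deposited, and folds are differences of log2(normalized count + 1) from limma, given with their standard error (SE) where they matter most. A gene was called when its p-value after Benjamini-Hochberg adjustment, made across the 12366 genes tested, was under 0.05. A control library's normalized counts added up to 21062211 to 24152885, those of a library labelled MED13-LKO to 17309215 to 18738563, and the reads behind them were estimated at 18763662 to 21413768 and 16086631 to 24231158. The top 100 genes took 49.3 to 53.5% of the control sums and 44.7 to 46.4% of the others. Med13 RNA showed no decrease in those labelled MED13-LKO, at 646 to 1055 against 578 to 796 in control (log2 fold change 0.22, adjusted p = 0.201 from limma). These libraries are therefore named by their label throughout, and a value per gene does not show whether the floxed exons were lost. By immunoblot of liver nuclear proteins, the study reports that MED13 was almost fully lost in MED13-LKO mice. It does not say whether the blotted mice were the ones sequenced. Nothing states that the 2 mice of a group came from separate litters or cages. Each p-value sets a difference against the spread between mice within groups, estimated over all groups of the fit.

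Averaged over the 3 diets, 7 of the 10 genes were lower in the libraries labelled MED13-LKO and none was higher, where 25.3% of all genes tested were called, 13.2% lower and 12.1% higher. The 7 were Cyp7a1, Cyp8b1, Cyp7b1, Cyp27a1, Slc27a5, Baat and Nr1h4, with log2 fold changes between -0.32 and -1.53. Nr0b2, Slc10a1 and Abcb11 did not pass the test. The median log2 fold change of the 10 genes was -0.45, beside 0.01 over all genes tested. In 4 genes, Cyp8b1, Cyp7b1, Slc27a5 and Baat, every one of the 6 libraries labelled MED13-LKO lay below every one of the 6 control libraries, as it did in 4.93% of all genes tested. In bulk liver, fewer cells of a type and less RNA per cell cannot be told apart.

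**Figure D1:**
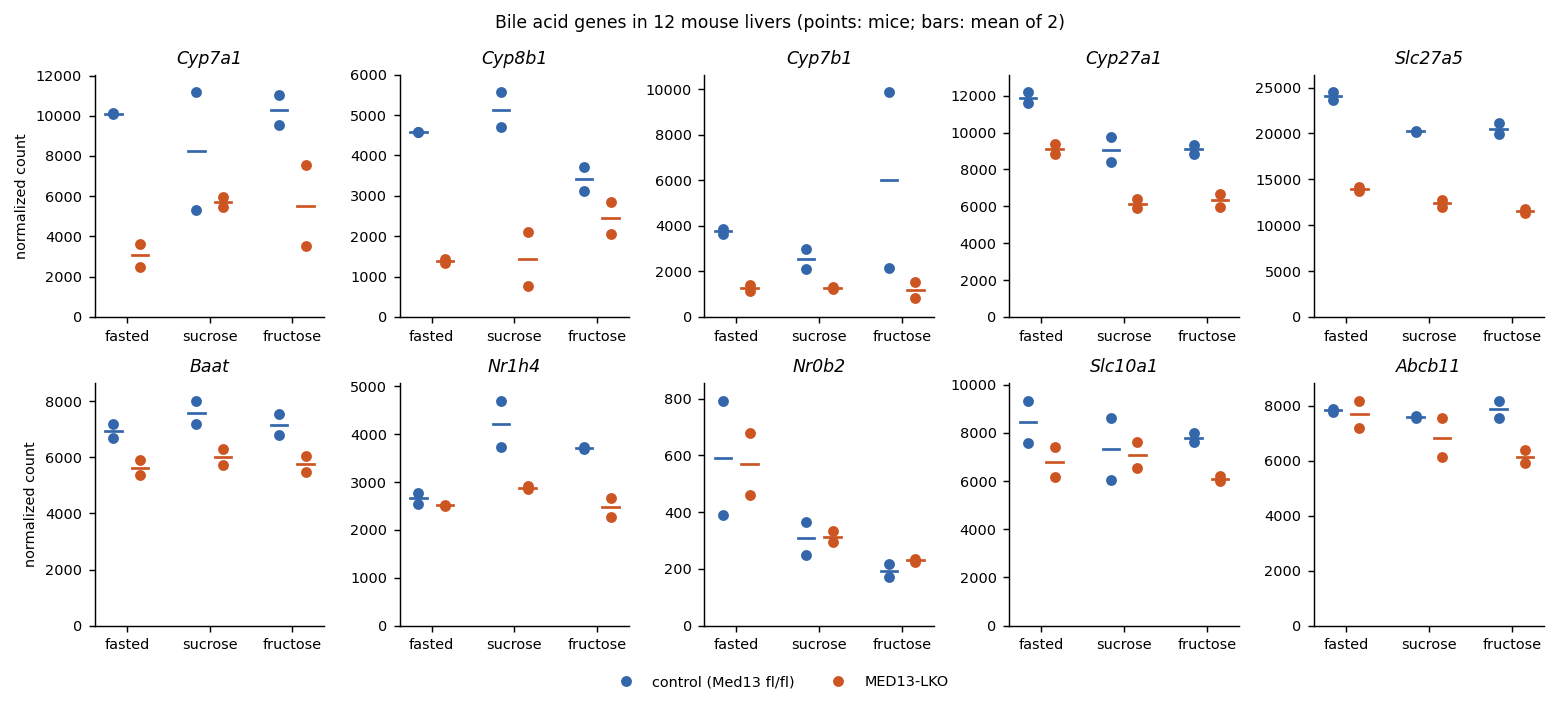
Normalized counts (vertical axes, each starting at 0) of the 10 genes in the 12 livers, by diet and genotype, with each point a mouse and each bar the mean of 2 mice. Cyp8b1, Cyp7b1, Cyp27a1, Slc27a5, Baat and Nr1h4 are separated by genotype in every diet. Cyp7b1 has one control mouse at 9859 with fructose, and Nr0b2 falls from the fasted to the fed diets in both genotypes.

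Cyp7a1, the cholesterol 7-alpha hydroxylase, lies on chromosome 4 of GRCm38 from 6265612 to 6275633. Its normalized counts in control mice were 10085 and 10134 fasted, 5326 and 11156 on sucrose, and 9531 and 11023 on fructose. In libraries labelled MED13-LKO they were 3638 and 2489 fasted, 5948 and 5458 on sucrose, and 7540 and 3533 on fructose. All but 1 of the 6 control mice lay above all 6 of the others, and the exception was the first sucrose-fed control mouse. Over all diets Cyp7a1 differed by -1.06 on the log2 scale (SE 0.215, adjusted p = 0.0059 from limma), or 48.0% of the control level. By diet it was -1.75 when fasted (adjusted p = 0.0189 from limma), -0.44 with sucrose (adjusted p = 0.570 from limma) and -0.99 with fructose (adjusted p = 0.143 from limma). The fasted call was lost when either fasted control mouse or the second fasted MED13-LKO mouse was left out (adjusted p from 0.0901 to 0.128 from limma). With sucrose the sign rests on one library, since the log2 fold change was 0.10 without the second sucrose-fed control mouse and -0.97 without the first.

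Cyp8b1, the sterol 12-alpha hydroxylase, lies on chromosome 9 from 121914356 to 121916305 and has a single annotated transcript. Control livers held 4577 and 4590 fasted, 5560 and 4707 on sucrose, and 3125 and 3723 on fructose. The livers labelled MED13-LKO held 1426 and 1333 fasted, 767 and 2104 on sucrose, and 2858 and 2056 on fructose. The genotypes did not overlap in any diet, and they came closest with fructose, where the control mice were at their lowest and the others at their highest. Averaged over the diets Cyp8b1 was lower by a log2 fold change of -1.41 (SE 0.206, adjusted p = 0.000984 from limma), 37.6% of control. It was called when fasted (-1.73, adjusted p = 0.0165 from limma) and with sucrose (-2.01, adjusted p = 0.0110 from limma), but not with fructose (-0.49, adjusted p = 0.451 from limma). The fasted call was lost without any one of the 4 fasted mice (adjusted p from 0.0687 to 0.0924 from limma), and the sucrose call without either sucrose-fed control mouse (adjusted p = 0.0693 and 0.0501 from limma). The difference averaged over diets was called with each mouse left out in turn, with log2 fold changes from -1.65 to -1.17.

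Cyp27a1, the mitochondrial sterol 27-hydroxylase, lies on chromosome 1 from 74713574 to 74737892. In control mice it was at 11626 and 12174 fasted, 8391 and 9766 on sucrose, and 8862 and 9348 on fructose. With the MED13-LKO label it was at 9353 and 8817, 5882 and 6414, and 6682 and 5953 in that order. Within each diet both control mice lay above both others, while fasted MED13-LKO mice overlapped fed control mice. It was the only one of the 4 Cyp genes called between genotypes in all 3 diets, with log2 fold changes of -0.39 fasted, -0.56 on sucrose and -0.53 on fructose (adjusted p = 0.0335, 0.00915 and 0.01 from limma), and of -0.49 averaged over them (SE 0.055, adjusted p = 0.000197 from limma). The fasted call was lost when any one of the 4 fasted mice was left out (adjusted p from 0.086 to 0.169 from limma), the sucrose call without the second control or the first MED13-LKO mouse on that diet (adjusted p = 0.0641 and 0.094 from limma), and the fructose call without the second MED13-LKO mouse on that diet (adjusted p = 0.0837 from limma). With the libraries rescaled to equal totals none of these single diets was called (adjusted p from 0.0592 to 0.712 from limma), while the average over diets was. In a fit of the 4 fructose-fed mice alone Cyp27a1 was not called either (adjusted p = 0.0899 from limma).

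Cyp7b1, the oxysterol 7-alpha hydroxylase, lies on chromosome 3 from 18071950 to 18243338. Its control values were 3650 and 3865 fasted, 2119 and 2965 on sucrose, and 9859 and 2155 on fructose. The values with the MED13-LKO label were 1125 and 1389, 1302 and 1234, and 834 and 1534 in that order. The genotypes did not overlap, and the first fructose-fed control mouse stood 4.57 times above its partner. Over all diets Cyp7b1 differed by -1.53 on the log2 scale (SE 0.316, adjusted p = 0.00643 from limma), or 34.6% of control. Without the first fructose-fed control mouse it was -1.17 (adjusted p = 0.000896 from limma), and without the second it was -1.90. No single diet was called, with log2 fold changes of -1.59 fasted, -0.98 on sucrose and -2.03 on fructose (adjusted p = 0.101, 0.346 and 0.0524 from limma). In fits of only the groups compared, the fasted and sucrose differences were called (adjusted p = 0.00149 and 0.0213 from limma). The fructose difference was not called there (adjusted p = 0.247 from limma). With equal totals the fructose difference was called (adjusted p = 0.0385 from limma), and the fasted and sucrose differences were not (adjusted p = 0.0923 and 0.355 from limma). With fructose the value was -0.93 without the first control mouse and -3.12 without the second, which was called (adjusted p = 0.000517 from limma). Leaving out either fructose-fed control mouse made the fasted and the sucrose differences called (adjusted p from 0.00478 to 0.0462 from limma).

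Slc27a5, the bile acyl-CoA synthetase that activates bile acids before conjugation, lies on chromosome 7 from 12988346 to 12998192. Its normalized counts were 23658 and 24462 fasted, 20295 and 20159 on sucrose, and 21150 and 19909 on fructose in control mice. They were 14181 and 13726, 11969 and 12775, and 11757 and 11343 with the MED13-LKO label in that order. The lowest control mouse, at 19909, stood above the highest of the others, at 14181. Slc27a5 was called in every diet, with log2 fold changes of -0.79 fasted, -0.71 on sucrose and -0.83 on fructose (adjusted p = 0.000236, 0.000509 and 0.000203 from limma). Over all diets it was -0.78 (SE 0.042, adjusted p = 1.84e-06 from limma), and leaving out each mouse in turn moved that value only between -0.79 and -0.76. Baat, which joins the activated acids to taurine or glycine, lies on chromosome 4 from 49489422 to 49506557. In control mice Baat was at 6675 and 7183 fasted, 7190 and 8003 on sucrose, and 6784 and 7543 on fructose. With the MED13-LKO label it was at 5895 and 5363, 5746 and 6304, and 6058 and 5468. The 2 genotypes were again fully separate, by a narrower gap, from 6304 to 6675. The log2 fold change averaged over diets was -0.32 (SE 0.056, adjusted p = 0.00296 from limma), and in single diets it ran from -0.30 to -0.33 without a call (adjusted p = 0.0765 to 0.0847 from limma).

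**Figure D2:**
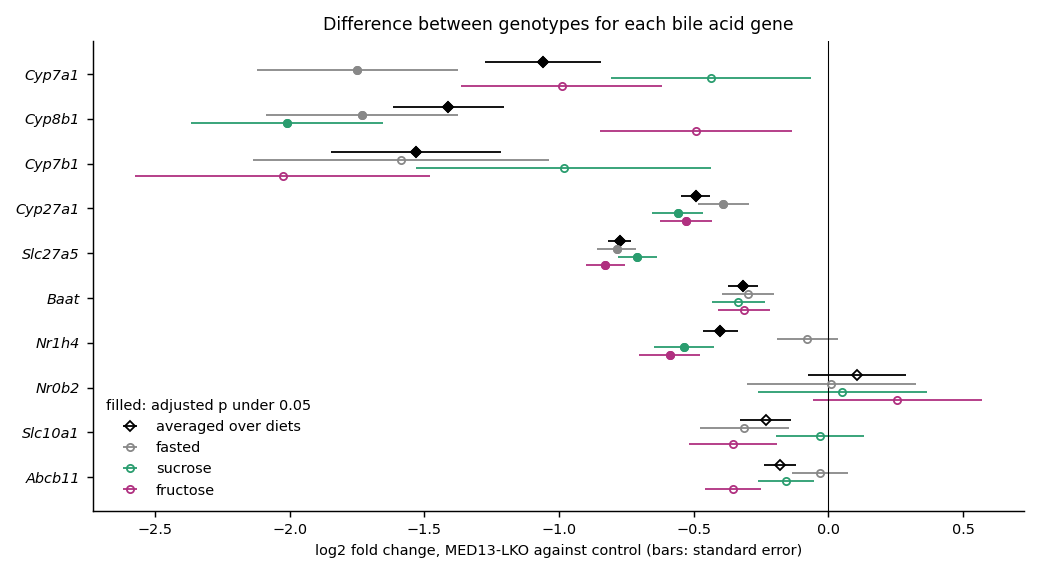
Log2 fold changes between genotypes (horizontal axis, MED13-LKO against control) of the 10 genes, averaged over diets (diamonds) and in each diet (circles), with bars for the standard error and filled symbols for adjusted p under 0.05 from limma. Slc27a5 and Cyp27a1 are filled in every diet, and Cyp7a1, Cyp8b1 and Cyp7b1 have the longest bars.

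Nr1h4, which encodes the bile acid receptor FXR, lies on chromosome 10 from 89454234 to 89533585. Its control values were 2765 and 2552 fasted, 3734 and 4690 on sucrose, and 3742 and 3683 on fructose. The values with the MED13-LKO label were 2529 and 2504 fasted, 2922 and 2851 on sucrose, and 2674 and 2273 on fructose. The 4 fed control mice stood above all other mice, and the fasted mice of the 2 genotypes lay within a narrow range, from 2504 to 2765. Between genotypes Nr1h4 was called with sucrose (-0.54, adjusted p = 0.0229 from limma) and with fructose (-0.59, adjusted p = 0.0128 from limma) but not when fasted (-0.08, adjusted p = 0.713 from limma). Its average over the diets was -0.40 (SE 0.065, adjusted p = 0.00172 from limma). The sucrose call was lost without the second control mouse or either MED13-LKO mouse on that diet (adjusted p from 0.121 to 0.127 from limma), and the fructose call without the second MED13-LKO mouse on that diet (adjusted p = 0.102 from limma). Both were lost as well in fits of the 4 libraries alone (adjusted p = 0.0554 and 0.0848 from limma). With equal totals neither was called (adjusted p = 0.132 with sucrose and 0.0924 with fructose from limma).

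Nr0b2, which encodes the repressor SHP, lies on chromosome 4 from 133553376 to 133556536. In control mice it was at 391 and 791 fasted, 250 and 366 on sucrose, and 170 and 218 on fructose. With the MED13-LKO label it was at 462 and 679 fasted, 332 and 296 on sucrose, and 225 and 235 on fructose. The genotypes overlapped when fasted and with sucrose, and with fructose both MED13-LKO mice were the higher by a small margin. Between genotypes the average over diets was 0.11 on the log2 scale (SE 0.181, adjusted p = 0.713 from limma), and it was -0.06 without the first fasted control mouse, so no direction can be given.

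Slc10a1 encodes NTCP, the sodium-dependent carrier that takes bile acids up from portal blood, and lies on chromosome 12 from 80953183 to 80968705. Control values were 7585 and 9318 fasted, 6067 and 8604 on sucrose, and 7624 and 7997 on fructose, and those with the MED13-LKO label were 7408 and 6187, 6548 and 7626, and 6013 and 6200. The lowest and the second lowest of all 12 were the first MED13-LKO mouse on fructose and the first control mouse on sucrose, so the genotypes overlapped widely. Its average over the diets was -0.23 (SE 0.095, adjusted p = 0.101 from limma), and without the first sucrose-fed control mouse it was -0.32 and called (adjusted p = 0.0205 from limma). Abcb11 encodes BSEP, the pump that exports bile salts into bile, and lies on chromosome 2 from 69238282 to 69342616. Its control values spanned a narrow range, 7879 and 7781 fasted, 7558 and 7607 on sucrose, and 7561 and 8159 on fructose. Those with the MED13-LKO label were 7204 and 8154 fasted, 7533 and 6147 on sucrose, and 5910 and 6389 on fructose, and 5 of the 6 lay below every control mouse. The log2 fold change averaged over diets was -0.18 (SE 0.060, adjusted p = 0.0516 from limma), just outside the threshold, and it was called without the second fasted or the first sucrose-fed MED13-LKO mouse (adjusted p = 0.047 and 0.0191 from limma). Of the 31-base subsequences of their annotated transcripts, 3.05% for Slc10a1 and 2.07% for Abcb11 also occur in other annotated genes. Gm42556 and Gm13613 shared the most with them, in that order. The split of reads between such genes is uncertain to that extent.

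Counted by diet, 4 of the 10 genes were called lower when fasted (Cyp7a1, Cyp8b1, Cyp27a1 and Slc27a5), where 8.98% of all genes tested were called and 4.86% were called lower. With sucrose 4 were called lower (Cyp8b1, Cyp27a1, Nr1h4 and Slc27a5), beside 6.03% of all genes called and 3.33% called lower. With fructose 3 were called lower (Cyp27a1, Nr1h4 and Slc27a5), beside 7.69% and 3.95%. None was called higher in any diet. The genotypes did not overlap, with the MED13-LKO label lower, in 8 genes when fasted, 7 with sucrose and 9 with fructose, and this held for 28.1%, 27.2% and 25.2% of all genes tested.

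The scaling of the libraries bears on the size of these differences. When the libraries were rescaled to equal totals in place of the authors' normalization, the median of all genes tested moved from 0.006 to 0.32 on the log2 scale, and the calls moved from 1493 higher and 1634 lower to 7120 higher and 404 lower. Under that scaling Cyp7a1 (-0.74), Cyp8b1 (-1.09), Cyp7b1 (-1.22), Cyp27a1 (-0.18) and Slc27a5 (-0.46) were still called lower. The calls of Baat (0.00, adjusted p = 0.991 from limma) and Nr1h4 (-0.08, adjusted p = 0.268 from limma) were lost, and the values of Slc10a1 and Abcb11 turned to 0.08 and 0.14 without a call. Rescaling a library shifts the log2 values of all its genes by nearly the same amount. Relative to the median of all genes the values therefore hardly change, whatever the data. They were -1.06 under either scaling for Cyp7a1, -1.42 and -1.41 for Cyp8b1 and -0.32 under either for Baat. That agreement is no check of the differences.

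**Figure D3:**
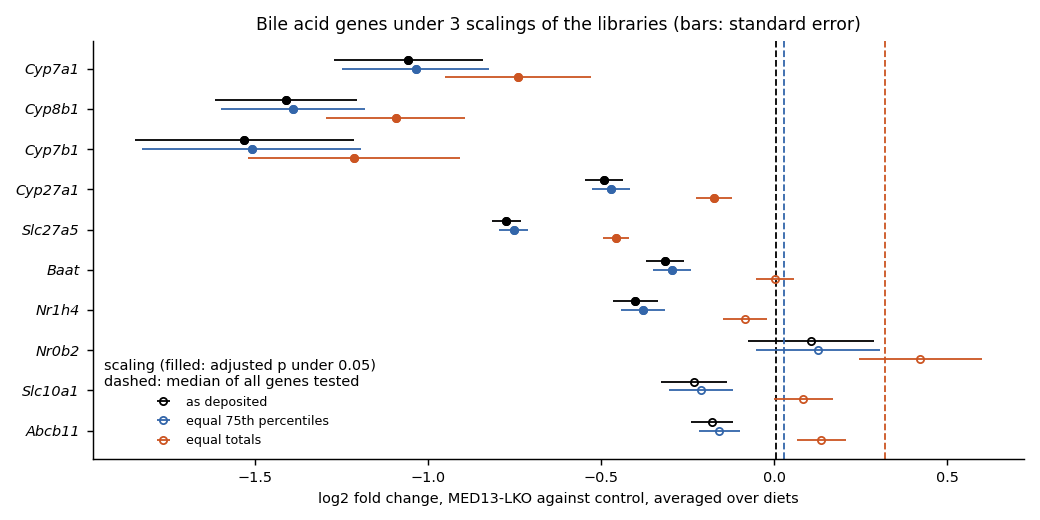
Log2 fold changes between genotypes averaged over diets (horizontal axis) of the 10 genes under 3 scalings of the libraries, with bars for the standard error, filled points for adjusted p under 0.05 and dashed lines for the median of all genes tested, at 0.006, 0.027 and 0.32. With equal totals all points move to the right together with that median, Slc10a1 and Abcb11 cross 0, and Baat comes to lie at 0.

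Feeding was compared with fasting over both genotypes and both sugars. Nr0b2, Cyp27a1 and Slc27a5 were called lower in fed mice and Nr1h4 higher, 4 of the 10 genes, where 21.8% of all genes tested were called, 11.0% lower and 10.7% higher. Nr0b2 fell by 1.13 on the log2 scale (SE 0.192, adjusted p = 0.00289 from limma), to 45.7% of the fasted level, and was the only one of the 10 in which the 8 fed mice, at 170 to 366, did not overlap the 4 fasted mice, at 391 to 791. Such a separation, lower in fed mice, was seen in 4.79% of all genes tested. Cyp27a1 fell by 0.47 (adjusted p = 0.000564 from limma) and Slc27a5 by 0.23 (adjusted p = 0.00527 from limma), and Nr1h4 rose by 0.33 (adjusted p = 0.00842 from limma). In these 3 the fed and fasted mice of different genotypes overlapped, and for Nr1h4 those within the MED13-LKO label did too. With that label Nr1h4 changed by 0.20 with sucrose and -0.03 with fructose, without a call (adjusted p = 0.36 and 0.911 from limma). In control mice it rose by 0.66 and 0.48. Cyp7a1, Cyp8b1, Cyp7b1, Baat, Slc10a1 and Abcb11 had log2 fold changes from -0.13 to 0.33 and did not pass the test. With equal totals Baat was called higher in fed mice as well (0.185, adjusted p = 0.0439 from limma), where 2361 of all genes were called higher and 712 lower.

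Within the control mice, Cyp27a1 was called lower (-0.39) and Nr1h4 higher (0.66) with sucrose, where 8.57% of all genes tested were called. With fructose Cyp27a1 (-0.39) and Nr0b2 (-1.53) were called lower and Nr1h4 (0.48) higher in control mice, beside 5.6% of all genes. With the MED13-LKO label, Cyp27a1 (-0.56) was called lower with sucrose, beside 5.71% of all genes, and Cyp27a1 (-0.53) and Nr0b2 (-1.28) with fructose, beside 6.53%. Cyp27a1 was the only one of the 10 called in all 4 comparisons. Nr0b2 was at -0.88 and -0.84 with sucrose in the 2 genotypes, without a call (adjusted p = 0.119 and 0.161 from limma), although both fed mice lay below both fasted mice in each. The call of Cyp27a1 with fructose in control mice (adjusted p = 0.0455 from limma) was lost without any one of 8 mice, those of the 2 control groups compared and the fasted and sucrose-fed MED13-LKO mice (adjusted p from 0.0578 to 0.228 from limma), and that of Nr1h4 (adjusted p = 0.0382 from limma) without any one of the same 8 (adjusted p from 0.0576 to 0.209 from limma). With sucrose, Cyp27a1 in control mice was no longer called without either fasted mouse or the first fed mouse (adjusted p from 0.0996 to 0.187 from limma) and Nr1h4 without the second fasted mouse (adjusted p = 0.0698 from limma). With the MED13-LKO label, Cyp27a1 was no longer called with sucrose without the first fasted or the first fed mouse (adjusted p = 0.0638 and 0.0768 from limma), or with fructose without either fasted mouse or the second fed mouse (adjusted p from 0.0609 to 0.134 from limma). The call of Nr0b2 with fructose was lost in control mice without the second fasted mouse (-1.02, adjusted p = 0.136 from limma) or the first fructose-fed mouse (-1.35, adjusted p = 0.108 from limma). With the MED13-LKO label it was lost without any one of the 6 mice of that label (adjusted p from 0.0616 to 0.221 from limma). The 2 sugar comparisons of a genotype share their fasted mice. With equal totals the calls of Cyp27a1 in control mice were lost (adjusted p = 0.0879 with sucrose and 0.108 with fructose from limma). In a fit of only the 4 control mice compared, the calls of Cyp27a1 (0.145), Nr1h4 (0.109) and Nr0b2 (0.148, each an adjusted p from limma) with fructose were lost, as was that of Cyp27a1 with sucrose (adjusted p = 0.0682 from limma).

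**Figure D4:**
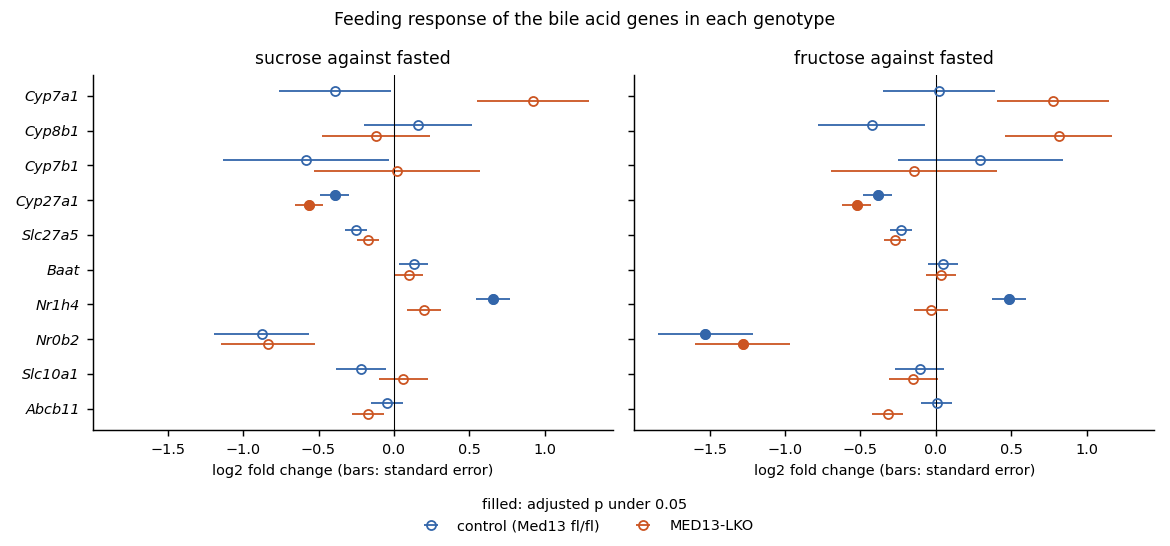
Log2 fold changes from the fasted state (horizontal axes) of the 10 genes with sucrose and with fructose in control mice and in mice labelled MED13-LKO, with bars for the standard error and filled points for adjusted p under 0.05 from limma. Cyp27a1 is filled in all 4 comparisons, Nr0b2 in both genotypes with fructose and Nr1h4 in control mice with both sugars.

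Whether the response to feeding differed between the genotypes was tested as an interaction. None of the 10 genes was called for sucrose or for fructose, where 0.146% and 0.0243% of all genes tested were called by limma, and 2 of the 10 had an unadjusted p under 0.05 for each sugar, beside 8.53% and 9.46% of all genes. For sucrose these were Cyp7a1, with an interaction of 1.31 on the log2 scale (SE 0.526, adjusted p = 0.537 from limma), and Nr1h4, with -0.46 (adjusted p = 0.480 from limma). For fructose they were Cyp8b1, with 1.24 (SE 0.505, adjusted p = 0.497 from limma), and Nr1h4, with -0.51 (adjusted p = 0.416 from limma). In Cyp8b1 both fructose-fed control mice lay below the fasted control mice and both fructose-fed MED13-LKO mice above the fasted ones, and in Cyp7a1 both sucrose-fed MED13-LKO mice lay above their fasted ones while the 2 control mice fell on either side. These differences in response did not pass the test across genes, with 2 mice in each group. For Cyp7a1 the sucrose interaction ran from 0.78 to 1.85 with each mouse left out in turn, and for Cyp8b1 the fructose interaction from 1.003 to 1.48.

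No difference between fructose and sucrose was called in the 10 genes (0 called by limma, beside 0.0404% of all genes tested, and 2 with an unadjusted p under 0.05, beside 9.48%). The pair was Nr0b2, lower with fructose by a log2 fold change of -0.55 (SE 0.222, adjusted p = 0.486 from limma), and Nr1h4, at -0.20 (SE 0.079, adjusted p = 0.478 from limma). All 4 fructose-fed mice had less Nr0b2 than all 4 sucrose-fed mice, 170 to 235 against 250 to 366, a separation seen in 1.25% of all genes tested.

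The 250 bases before the start of transcription are shown for 3 of the genes, one for each pattern among the averaged comparisons. Nr0b2 was called for feeding and not for genotype, Cyp8b1 for genotype and not for feeding, and Cyp27a1 for both. The sequences come from RefSeq on GRCm38.p6 and read 5′ to 3′ on the gene's strand. Capitals mark matches, on either strand, to the letters searched: TTCNNNGAA, bound by STAT5, and CACGTG, an E-box.
Nr0b2 (chr4:133553126-133553375, plus strand): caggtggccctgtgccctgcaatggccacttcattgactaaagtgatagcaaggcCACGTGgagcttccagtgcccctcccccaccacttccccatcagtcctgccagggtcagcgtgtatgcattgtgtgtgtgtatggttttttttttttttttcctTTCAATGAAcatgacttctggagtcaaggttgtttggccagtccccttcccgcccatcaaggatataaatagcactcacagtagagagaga
Cyp8b1 (chr9:121916306-121916555, minus strand): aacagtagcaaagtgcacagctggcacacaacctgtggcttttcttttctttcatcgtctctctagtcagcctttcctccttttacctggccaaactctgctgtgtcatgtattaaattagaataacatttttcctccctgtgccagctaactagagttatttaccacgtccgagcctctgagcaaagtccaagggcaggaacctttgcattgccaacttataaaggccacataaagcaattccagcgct
Cyp27a1 (chr1:74713285-74713534, plus strand): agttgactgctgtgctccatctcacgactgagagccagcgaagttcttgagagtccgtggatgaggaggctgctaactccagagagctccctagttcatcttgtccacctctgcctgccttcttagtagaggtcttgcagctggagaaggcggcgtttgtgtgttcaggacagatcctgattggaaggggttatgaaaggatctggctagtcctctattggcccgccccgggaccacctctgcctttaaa
The Nr0b2 window holds the E-box letters from base -195 and a STAT5 match from base -91, counted with -1 as the base before the start. Of all 32851 promoter windows searched, 6.02% hold CACGTG and 7.02% TTCNNNGAA. Among the other genes of the 10, the TTCNNNGAA letters were found before a start of Slc10a1. TCAAGGTCA, bound by NR5A2 (0.387% of windows), and repeats of AGGTCA spaced by 1 base, inverted (0.00609%) or direct (0.0335%), were in no window held for these genes. Windows were held for Cyp8b1, Cyp27a1, Nr1h4, Nr0b2, Slc10a1 and Abcb11, and Cyp7a1, Cyp7b1, Slc27a5 and Baat had none. A match is a match of letters and not a site shown to be bound.

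Of 65 further genes of bile acid biology listed by function, 63 were in the table and 59 were tested. Averaged over diets, 25 of the 59 (42.4%) were called lower with the MED13-LKO label and 6 (10.2%) higher, beside 13.2% lower and 12.1% higher over all genes, with a median log2 fold change of -0.19. The share called higher was thus near that of all genes. With equal totals 14 were called lower and 26 higher, where 404 of the 12366 genes were called lower and 7120 higher, so the balance of the list depends on the scaling. Of the 17 other genes of synthesis tested, 9 were called lower and 1 higher. Of the 14 transporters of bile acids and bile lipids, 7 were lower and 4 higher, of the 22 regulators 6 were lower and 1 higher, and of the 6 genes of sulfation, glucuronidation and detoxification 3 were lower.

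The separated genes with the largest falls were Sult2a8, a liver sulfotransferase, at 17365 to 25628 in control and 2261 to 5327 with the MED13-LKO label (log2 fold change -2.49, adjusted p = 1.62e-06 from limma), Slco1a1, an uptake carrier (-1.27), and Cyp46a1, the cholesterol 24-hydroxylase, at low values (-1.19). Abcb1a, a multidrug export pump, was higher, at 411 to 828 against 108 to 274 (1.59, adjusted p = 0.000417 from limma), and so was Abcc4, which exports bile acids across the basolateral membrane, at 68.4 to 189 against 41.2 to 66.7 (1.20, adjusted p = 0.00122 from limma). All 5 were called in the same direction when the libraries were rescaled to equal totals or equal 75th percentiles, and the call of Cyp46a1 was lost without any one of 8 mice, the 4 fasted ones, both sucrose-fed MED13-LKO mice, the first sucrose-fed or the second fructose-fed control mouse (adjusted p from 0.0512 to 0.0721 from limma). With feeding, 16 of the 59 (27.1%) were called lower and 7 (11.9%) higher, beside 11.0% and 10.7% of all genes, with a median of -0.17, and with equal totals 9 were called lower and 8 higher, where 712 of all genes were called lower and 2361 higher. Onecut1 (2.03), Foxa2 (1.24) and Bhlhe40 (1.18), transcription factors, rose the most among those separated, and Abcg8 (-1.14), a subunit of a sterol exporter, the coactivator gene Ppargc1a (-1.10) and Nr1i2 (-0.84), which encodes the xenobiotic receptor PXR, fell the most. With the MED13-LKO label, Onecut1 was at 310.3 and 268.4 fasted, 1798.0 and 904.0 on sucrose, and only 343.8 and 356.5 on fructose. Foxa2 was at 314.1 and 316.9, 777.5 and 642.7, and 412.1 and 376.2 in that order. Bhlhe40 was at 1264.2 and 1363.3, 3453.2 and 3211.4, and 2646.2 and 3045.3. Onecut1 rested on uneven mice, since the 2 fructose-fed control mice were at 4029.9 and 535.7, and its call was lost without the second fasted control mouse (1.83, adjusted p = 0.0508 from limma).

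Markers of cell types and of other gene groups moved with the genotype as well. Between genotypes, 13.2% of all genes tested were called lower and 12.1% higher. Hepatocyte markers summed to 2652077 to 3387977 in control libraries and 2024618 to 2447942 in those labelled MED13-LKO, and 6 of 8 were called lower, with a median log2 fold change of -0.44, against -0.45 for the 10 bile acid genes. Genes of pericentral hepatocytes were lower in 4 of 7 (median -0.48) and of periportal hepatocytes in 5 of 8 (-0.41). With feeding, 7 of the 8 periportal genes and 1 of the 7 pericentral genes were called lower, beside 11.0% of all genes tested. Kupffer cell markers summed to 3743 to 5345 in control and 4958 to 6687 with the MED13-LKO label (2 of 8 called higher), endothelial markers to 4667 to 5589 and 5378 to 7359 (4 of 7 higher), and stellate cell markers to 7306 to 8635 and 7004 to 8097 (2 of 7 lower). Cholangiocyte markers, without Epcam, summed to 2725 to 3993 and 3124 to 4609 (1 of 6 tested higher and 1 lower), and leukocyte markers to 182 to 255 and 233 to 387 (1 of 2 tested higher). The 3 of 6 enterocyte markers in the table, Fabp2, Vil1 and Apoa4, summed to 4069 to 7654 and 3486 to 14234 (1 of 2 tested higher). Which cells gave the RNA of these 3 was not tested. No marker in the table was under 1 in all libraries. With equal totals, where 7120 of the 12366 genes were called higher and 404 lower, 1 hepatocyte marker was called lower and 1 higher, and so it was for the periportal genes, while 4 pericentral genes were called lower and 2 higher. All 8 Kupffer markers, all 7 endothelial markers, 4 of 7 stellate markers, 3 of 6 cholangiocyte markers, both leukocyte markers tested and 1 of 2 enterocyte markers were called higher under that scaling, and none of them lower. With feeding, equal totals left 4 of the 8 periportal genes and 0 of the 7 pericentral genes called lower. The part of these markers in the differences of the bile acid genes was not tested.

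Genes known to be higher in male than in female liver, a list that holds Cyp7b1 itself and Slco1a1, were called lower in 11 of 13, with a median log2 fold change of -1.53. Of 14 genes known to be higher in female liver, 13 were in the table and 8 passed the filter on the mean. Among these 8, 4 were called higher, with a median of 0.75. A gene near 0 in control passes that filter only when higher with the MED13-LKO label, which favours that direction. Of all genes tested, 13.2% were called lower and 12.1% higher. Mup7, a major urinary protein of male mice, was at 111473 to 482992 in control and 649 to 4685 with the MED13-LKO label, and Cyp2a4, a steroid hydroxylase of female liver, at 11.2 to 39.6 and 2256 to 6576. Mup and Cyp2a genes have close copies among which reads may be split. None of the 8 female-biased genes was called lower, and the counts of the male-biased list were the same with equal totals. The part of these lists in the differences of the bile acid genes was not tested.

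**Figure D5:**
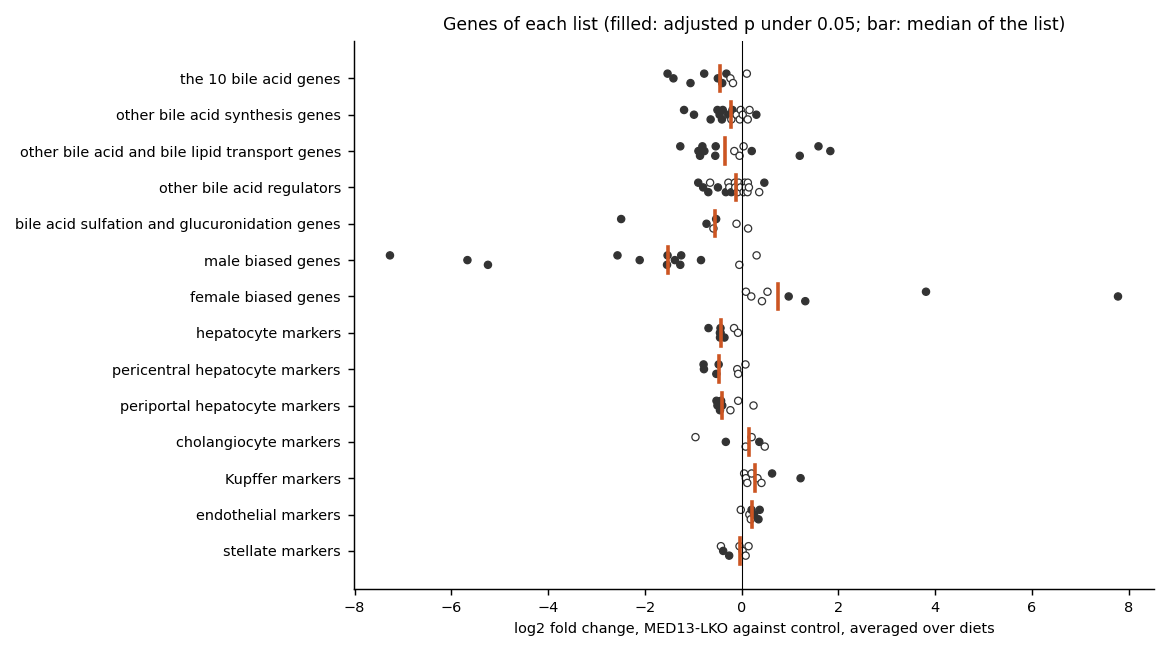
Log2 fold changes between genotypes averaged over diets (horizontal axis) of the tested genes of each list, with filled points for adjusted p under 0.05 from limma and a bar for the median of the list. The 10 bile acid genes have their median at -0.45, close to the hepatocyte markers at -0.44, and the male-biased genes, which include Cyp7b1, reach -7.27.

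Over the 12 libraries, the genes whose log2 values followed a member most closely were named as a description, without a test, since the libraries share genotype and diet. For Cyp7a1 they were Hprt (Pearson r = 0.939), Cmss1 (0.930) and Hsd3b7 (0.910), the last an enzyme of bile acid synthesis. For Cyp8b1 they were Zfand4 (0.941), Ugdh (0.920) and Slc37a4 (0.908), and for Cyp27a1 Apoh (0.990), Lamp2 (0.969) and Prodh (0.968). Cyp7b1 was followed by C8b (0.967), Hc (0.960) and Egfr (0.958), of which the first pair encode complement proteins of the liver. Slc27a5 was followed by Serpina1b (0.988), Serpina1d (0.988) and Azgp1 (0.985), and Baat by Gcgr (0.952) and Adh1 (0.950). The Serpina1 genes are near-identical copies, so their values are uncertain. For Nr1h4 the genes were Glyat (0.902), Mttp (0.901) and Sod2 (0.900), and for Nr0b2, whose values followed feeding, Crbn (0.932), Mospd2 (0.925) and Hykk (0.921).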

How the data were processed

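Groups of the 12 liver RNA-seq libraries were taken from the sample titles. Per the labels, reads were trimmed with Trim Galore 0.6.5, transcript counts were estimated with kallisto 0.46.0 and normalized with DESeq2 1.24.0, and the build was mm10, while the transcript reference is not given in the sources used here. The signal values deposited by the authors are these normalized counts, with 16346 Ensembl gene identifiers as rows. Low values were whole multiples of a step per library (within 0.05) for 87.3 to 99.0% of the values of the 2652 genes with a single transcript but for 51.9 to 58.9% over all genes, so whole reads were not recovered and no count test was run. The step gave each library's depth.

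The analysis took log2(normalized count + 1) of each deposited value and kept 12366 genes whose mean was 10 or more. Fold changes on this scale are understated for low genes. All 6 groups entered a single limma fit (limma 3.58.1, R 4.3.3, trended prior), which was tested on simulated data, with Benjamini-Hochberg adjustment across the genes kept. Symbols and positions are from GENCODE M21 on GRCm38, in which 16212 of the identifiers were found, shared 31-base subsequences were counted there, and Python 3.11.15 and matplotlib 3.10.9 drew the figures.

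The 10 genes, the other lists and the tests were chosen with earlier results of these data known. All 10 genes were described in every comparison. Of the other bile acid genes, up to 3 higher and 3 lower were named for genotype and for feeding, taken by size of change from those called without overlap, and only 2 qualified as higher for genotype. For each gene called in any comparison the 3 genes with the highest correlation were named, except 1 that is not reported here. Mup7, Cyp2a4 and other single genes beyond these were picked after their values were seen. Alternatives were pseudocounts of 0.1 and 10, no filter, equal 75th percentiles, equal totals, the replicate number as a block, only the compared groups, and each mouse left out in turn.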

Additional observations from a re-analysis of the deposited data

How the results depend on the processing

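Of 51 fold changes of the 10 genes followed, 955 values were recomputed, and 858 kept their direction and their side of the threshold, 71 lost a call, 13 gained one and 13 turned in sign. Of the 30 that were called, 490 of 562 recomputed values were called in the same direction, and the one that turned was Baat between genotypes. In a comparison of single groups, leaving out a mouse of another group cannot move the fold change and changes only its error. A pseudocount, the block or the choice of groups moves it little or not at all. Many values therefore kept their direction by construction, and these counts do not measure robustness. For the 11 other bile acid genes named, 189 of the recomputed values stayed called in the same direction and 9 lost the call, 8 of them for Cyp46a1. The number of the 10 genes called between genotypes averaged over diets was 7 in all alternatives but equal totals (5) and some fits without 1 mouse (up to 8), and the number called for feeding was 4 in every fit without 1 mouse and 5 with equal totals, where Baat was added. In single diets the number moved. With equal totals it was 2 between genotypes with sucrose and 1 for sucrose in control mice. With only the groups compared it was 1 between genotypes with fructose, 1 for sucrose and 0 for fructose in control mice, and 3 for sucrose with the MED13-LKO label. With each mouse left out in turn it ran from 1 to 5 between genotypes when fasted, 1 to 5 with sucrose and 1 to 4 with fructose, from 0 to 3 for sucrose and 0 to 3 for fructose in control mice, and from 0 to 1 and 0 to 3 with the MED13-LKO label. The cause of these moves was not tested, beyond the smaller number of mice. Equal totals turned Slc10a1 (0.084), Abcb11 (0.136) and Baat (0.001) between genotypes, which is the shift of all genes given above, and Cyp7b1 (0.004) and Slc10a1 (0.004) with feeding. Leaving out 1 mouse turned values that were not called, whose ranges were -0.063 to 0.28 for Nr0b2 averaged between genotypes, -0.97 to 0.10 for Cyp7a1 between genotypes with sucrose, -0.075 to 0.29 for Cyp8b1 and -0.38 to 0.17 for Cyp7b1 with feeding, -1.003 to 0.45 for the sucrose interaction of Cyp8b1 and -1.54 to 0.66 for the fructose interaction of Cyp7b1. Equal replicate numbers in the titles did not mark mice that deviated together (15 correlations between groups from -0.142 to 0.078, 0 of them above 0.1), and the fed mice carry other numbers in the deposited columns. With the replicate block the number of genes called was 1 for fructose in control mice, and in no other comparison did it move by over 1.5 times. A crossed pairing of the 2 fructose groups was added after the data were seen, and the number called between genotypes with fructose was 3 with it, as without a block.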
